A study of Mus musculus with 6 samples.

Results

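The endothelial cell genes examined were Pecam1, Kdr, Flt1, Tek, Tie1, Cdh5, Erg, Fli1, Sox17 and Sox18, and their chromatin was followed by ATAC-seq in nuclei of mouse skeletal muscle. An interval of the deposited table was assigned to a gene where it overlapped the gene's body or lay within 10 kb of one of its transcription start sites (TSS), by the GENCODE vM1 annotation of mm9. This gave 30 of the 39768 intervals of the table, over 9 of the 10 genes. Sox17 had no interval, also when the distance was widened to 50 kb.

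The data came from 6 libraries of 50000 nuclei each, prepared from mice 7 weeks old, of strain C57BL/6 in the labels and C57BL/6N in the methods, whose H2A.Z genes H2afz and H2afv are both floxed. The 3 CTL libraries, titled WT in the labels, were by their genotype label from floxed mice without the HSA-Cre transgene, and the 3 libraries labelled H2A.Z dKO were from mice that carry it. The HSA promoter, that of the skeletal alpha-actin gene, drives Cre in differentiated muscle fibres, so endothelial cells of the labelled H2A.Z dKO mice are not expected to recombine the floxed genes. The labels name nuclei of tibialis anterior muscle purified by ultracentrifugation, whereas the methods describe hind limb muscles, and neither names a step that separates fibre nuclei from those of other cells. In libraries of whole muscle, fewer endothelial nuclei and less accessibility per endothelial nucleus cannot be told apart.

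Blood vessels run beside every muscle fibre, and their inner wall is made of endothelial cells. These cells receive vascular endothelial growth factor through the receptor kinases Kdr and Flt1, and angiopoietins through Tek and its partner Tie1. They hold together by adhesion proteins such as Cdh5 and Pecam1. Their identity is kept by transcription factors of the ETS family, among them Erg and Fli1, which bind words with GGAA at the core, and of the SOX F group, Sox17 and Sox18. ATAC-seq reads such loci through the Tn5 transposase, which inserts adapters into DNA left free by nucleosomes, so that fragment ends collect at active promoters and enhancers.

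Promoter members of Kdr, Flt1 and Tie1 are shown first, because they are places where a start site of an endothelial gene was open in these nuclei. The sequences are from mm9, run 5′ to 3′ on the strand of the gene, and leave out annotated exons. Capitals mark the letters AACAAT, a SOX word, on either strand. They cover the upstream part of a Kdr interval (chr5:76374484-76374554, minus strand), of the Flt1 promoter interval (chr5:148537588-148537702, minus strand) and of a Tie1 interval (chr4:118162667-118162741, minus strand).
Kdr: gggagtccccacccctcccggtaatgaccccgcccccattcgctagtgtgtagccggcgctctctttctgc
Flt1: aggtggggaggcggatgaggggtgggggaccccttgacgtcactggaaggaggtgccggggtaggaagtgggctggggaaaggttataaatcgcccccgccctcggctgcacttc
Tie1: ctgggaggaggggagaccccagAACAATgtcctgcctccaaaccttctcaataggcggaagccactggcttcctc

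Intervals away from the start sites are shown for the word searches and the comparison of groups. The first is 300 bp of Peak_8209 in intron 1 of Tek (chr4:94413197-94413496, plus strand), with the ETS word CAGGAAG or its complement in capitals. The second is the 300 bp centred on Peak_12271 in intron 10 of Flt1 (chr5:148469419-148469718, minus strand), the member interval with the lowest p in the comparison, with complements of the GATA factor word AGATAAG and of the ETS word in capitals, both of which lie in the flank outside Peak_12271 and its neighbour Peak_12272. The third is Peak_34462 in intron 3 of Erg (chr16:95660782-95660954, minus strand), with AACAAT in capitals.
Tek: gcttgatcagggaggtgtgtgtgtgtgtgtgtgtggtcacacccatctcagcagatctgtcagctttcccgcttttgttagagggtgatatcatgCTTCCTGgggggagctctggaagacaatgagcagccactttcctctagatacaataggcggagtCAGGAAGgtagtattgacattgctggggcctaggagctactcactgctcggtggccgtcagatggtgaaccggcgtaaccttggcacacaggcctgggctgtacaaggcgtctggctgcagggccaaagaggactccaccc
Flt1: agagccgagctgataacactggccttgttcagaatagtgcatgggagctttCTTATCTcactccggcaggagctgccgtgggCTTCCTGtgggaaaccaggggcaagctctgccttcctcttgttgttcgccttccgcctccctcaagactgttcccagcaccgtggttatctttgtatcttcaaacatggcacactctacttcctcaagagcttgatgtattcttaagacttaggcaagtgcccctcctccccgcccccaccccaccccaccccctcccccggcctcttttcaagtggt
Erg: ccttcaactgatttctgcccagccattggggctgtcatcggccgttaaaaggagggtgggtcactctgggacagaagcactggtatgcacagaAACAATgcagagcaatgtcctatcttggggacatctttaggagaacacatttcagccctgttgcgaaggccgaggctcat

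Another Flt1 interval, Peak_12268 in intron 15, consists of a short tandem repeat. Reads from such a repeat can come from many places in the genome. The Flt1 sum is therefore given with and without Peak_12268.

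The libraries held 3520008 to 6117245 counts in all intervals, and promoter intervals took 77.0% of the counts in H2A.Z dKO replicate 1 against 73.2% to 74.9% in the other libraries. The pair of intervals between the loxP sites of H2afz held 79, 69 and 33 counts in CTL and 57, 52 and 64 in H2A.Z dKO. These values overlapped, at 12.4 ± 2.83 CPM (counts per 1000000 counts in intervals, with TMM factors; SD, n = 3) against 11.3 ± 1.28 (SD, n = 3). The directions given here therefore rest on the labels. Nothing states whether the replicates are separate animals, so p-values measure the spread between these libraries.

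Accessibility at the start sites was compared first, in CTL. Of the 10 genes, 5 (Kdr, Flt1, Tek, Tie1 and Cdh5) had an interval with its midpoint within 1 kb of an own TSS, 8 such intervals in all. Pecam1, Erg, Fli1 and Sox18 had intervals elsewhere only. Over the 22380 protein-coding genes of the annotation, 60.2% had an interval under this rule and 49.1% had one at a promoter. The 8 promoter members had a median of 98.0 RPKM (counts per kb of interval width and 1000000 counts, without TMM factors) in CTL, against 132 for all promoter intervals. The 30 members together had a median of 96.5 RPKM, against 116 for all intervals, and a median of 33.9 counts per library against 67.3. The share of members with a promoter interval was thus near that of all protein-coding genes, and the medians of their levels were below those of the table.

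The promoter interval with the highest RPKM of each gene is given next. Kdr Peak_10702, 147 bp upstream of the TSS, had 154, 267 and 167 RPKM in CTL replicates 1, 2 and 3, in the 88.1th percentile of all intervals, but it is 17 bp wide and rests on 10 to 21 counts. Cdh5 Peak_18539, at the TSS, had 117, 113 and 117 RPKM. Tek Peak_8207, 328 bp upstream, ranged from 36.3 RPKM in CTL replicate 1 to 137 in CTL replicate 3, from 6 and 13 counts. Tie1 Peak_8639 had 87.2, 97.6 and 90.5 RPKM, and Flt1 Peak_12273 had 80.9, 70.1 and 69.5 RPKM. By RPKM the mean was highest at Kdr and lowest at Flt1, without overlap of their libraries, whereas the range of Tek spanned those of Cdh5, Tie1 and Flt1. This order rests on the widths of the intervals, since without the width Flt1 Peak_12273 had 13.03 to 15.2 CPM and Kdr Peak_10702 had 2.62 to 4.54 CPM in CTL. Away from the start sites, the highest means in CTL were 196 RPKM at Fli1 Peak_19634, an interval of 18 bp, and 156 RPKM at the repeat in Flt1, and the lowest was 50.7 RPKM at Cdh5 Peak_18540 in intron 4.

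**Figure D1:**
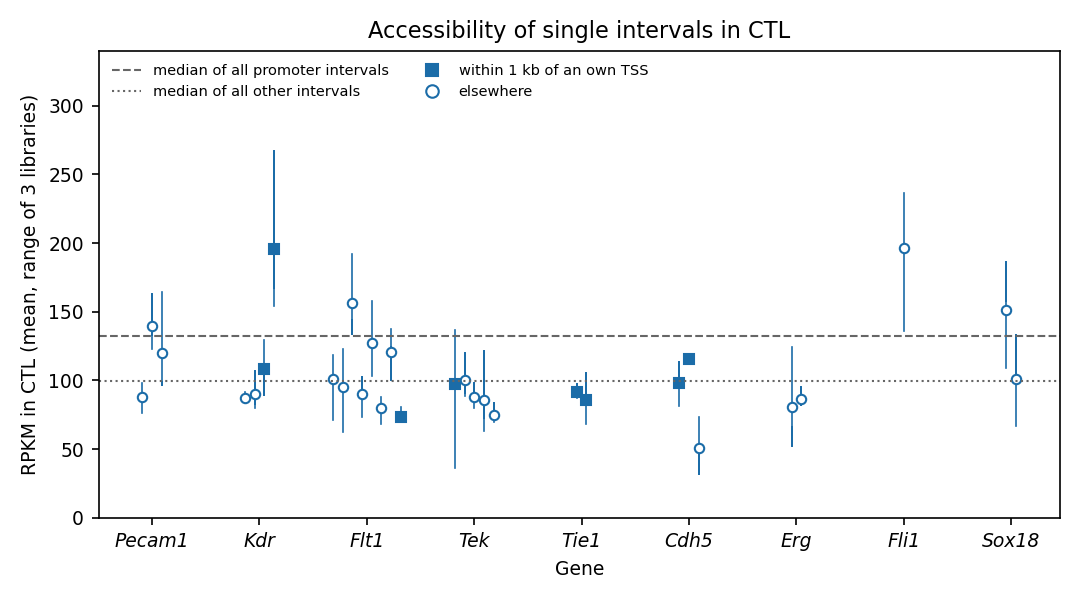
Accessibility of each member interval in CTL, in RPKM on a linear axis, by gene. Symbols are means of 3 libraries and vertical lines their range, filled squares lie within 1 kb of an own TSS, open circles elsewhere, and horizontal lines are medians of all promoter intervals (132 RPKM) and all other intervals (99.9 RPKM). Most members lie below the median of all promoter intervals.

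The groups were compared by the sum of the intervals of each gene and by single interval, with edgeR's quasi-likelihood test and Benjamini-Hochberg adjustment over all genes or all intervals. No gene sum and no interval of an endothelial gene passed an adjusted p of 0.05. The share of all intervals called was 0% (0 of 39768), and of all gene sums 0% (0 of 17287). All 9 sums had a negative log2 fold change, which means lower counts with the H2A.Z dKO label, with a median of -0.19 against -0.0040 over all genes with an interval, of which 51.3% were negative. Unadjusted p fell under 0.05 for 3 of the 9 sums, Kdr, Flt1 and Fli1, all lower, against 2.48% of all sums. This number was 1, namely Kdr, with DESeq2 (1.28% of all sums) and when replicate 3 of CTL (1.2%) or of H2A.Z dKO (3.62%) was left out. The libraries of the 2 groups did not overlap, with H2A.Z dKO lower, for 2 of the 9, Kdr and Flt1, against 6.37% of all sums.

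Kdr, the main signalling receptor for vascular endothelial growth factor (chr5:76328852-76374483, minus strand), was measured by 4 intervals. Their sum was 31.3, 34.8 and 33.7 CPM in CTL replicates 1, 2 and 3 and 23.9, 24.9 and 27.5 CPM in H2A.Z dKO replicates 1, 2 and 3. Every CTL library was above every library labelled H2A.Z dKO. The log2 fold change was -0.39 (SE 0.14, 95% confidence interval -0.68 to -0.09), with an unadjusted p of 0.0135 and an adjusted p of 0.983 in edgeR. The 4 intervals pointed the same way, from -0.28 at Peak_10702 just upstream of the TSS (0.014 without CTL replicate 2) to -0.44 at Peak_10700 in exon 30, in a stretch annotated as UTR. Peak_10700 had 69, 70 and 41 counts in CTL and 49, 44 and 51 in H2A.Z dKO, which did not overlap once scaled for library size.

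Flt1, the receptor that binds the same growth factor with weak signalling of its own (chr5:148373180-148537587, minus strand), had 8 intervals, more than any other member. Its sum was 71.4, 67.7 and 74.5 CPM in CTL and 65.3, 58.9 and 55.5 CPM in H2A.Z dKO, again without overlap. The log2 fold change was -0.25 (SE 0.11, 95% confidence interval -0.48 to -0.02), with an unadjusted p of 0.0383 and an adjusted p of 0.983 in edgeR. The repeat in intron 15 held 30.0 CPM in CTL replicate 3 and 21.0 to 29.1 CPM in the others, with a log2 fold change of 0.05 (SE 0.18). Without it the sum of the other 7 intervals was 48.8, 46.7 and 44.5 CPM in CTL and 36.1, 36.4 and 32.0 CPM in H2A.Z dKO. That moved the log2 fold change to -0.43 (SE 0.12), with an adjusted p of 0.983 in edgeR.

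Single intervals of Flt1 had values from -0.83 to 0.05, and differences among them were not tested. Peak_12271 in intron 10, 104 bp wide, had 88.0, 83.1 and 68.3 RPKM in CTL and 52.4, 38.0 and 44.0 RPKM in H2A.Z dKO. This is the member interval with the lowest p, at a log2 fold change of -0.83 (SE 0.24, 95% confidence interval -1.34 to -0.33), unadjusted p of 0.0025 and adjusted p of 0.972 in edgeR. Its neighbour Peak_12272 had -0.46 (SE 0.25), and Peak_12269 and Peak_12270 in intron 12 had -0.46 (SE 0.32) and -0.72 (SE 0.31). All 4 were listed by the authors as regions of CTL only. Peak_12266 in intron 23, listed for H2A.Z dKO only, had -0.51 (SE 0.29), and Peak_12267 in intron 20 had -0.16 (SE 0.31). The promoter interval Peak_12273 had -0.19 (SE 0.20), from 70.6, 63.1 and 60.4 RPKM in H2A.Z dKO, which overlapped CTL. It was -0.10 without CTL replicate 1 and -0.29 without H2A.Z dKO replicate 1.

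Tek, the angiopoietin receptor (chr4:94405980-94541667, plus strand), had 5 intervals, of which Peak_8208 and Peak_8209 overlap each other and share fragment ends. Its sum was 54.9, 79.0 and 61.2 CPM in CTL and 62.1, 60.8 and 57.9 CPM in H2A.Z dKO. The groups overlapped, and CTL replicate 2 was the highest. The log2 fold change was -0.11 (SE 0.13, 95% confidence interval -0.39 to 0.18), and it was 0.061 without CTL replicate 2. Peak_8207, at its promoter, had 6, 15 and 13 counts in CTL and 20, 11 and 11 in H2A.Z dKO, a log2 fold change of 0.17 (SE 0.39) that was -0.34 without CTL replicate 1 and -0.082 without H2A.Z dKO replicate 1.

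Tie1, an orphan receptor that pairs with Tek (chr4:118143796-118162666, minus strand), had 2 intervals, both at its TSS and both also within reach of the pseudogene Gm12859. Their sum was 24.6, 32.9 and 27.8 CPM in CTL and 27.5, 18.2 and 19.4 CPM in H2A.Z dKO. Replicates 2 and 3 of H2A.Z dKO were below all CTL libraries, and replicate 1 lay inside the CTL range. Tie1 had a log2 fold change of -0.37 (SE 0.19, 95% confidence interval -0.77 to 0.03), with an adjusted p of 0.983 in edgeR, and of -0.59 without H2A.Z dKO replicate 1.

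Cdh5, the cadherin of endothelial junctions (chr8:106625525-106668402, plus strand), had 3 intervals that did not point the same way. Its sum was 29.3, 24.7 and 26.3 CPM in CTL and 17.4, 27.7 and 26.9 CPM in H2A.Z dKO, where H2A.Z dKO replicate 1 was alone below the CTL range. Summed, Cdh5 had a log2 fold change of -0.17 (SE 0.18, 95% confidence interval -0.57 to 0.22), and of 0.019 without H2A.Z dKO replicate 1. At the promoter, Peak_18539 had 59.2, 95.6 and 86.6 RPKM in H2A.Z dKO, all below CTL, with a log2 fold change of -0.54 (SE 0.23). Peak_18538, next to it, had 6.55, 9.09 and 7.93 CPM in CTL and 4.39, 6.49 and 4.90 CPM in H2A.Z dKO, where the highest H2A.Z dKO library was just under the lowest CTL library. Its log2 fold change was -0.58 (SE 0.25). Peak_18540 in intron 4 had the lowest p among members with a positive value, 0.41 (SE 0.29, unadjusted p of 0.17 in edgeR), with 73 counts in CTL replicate 1 against 24 and 27 in the other CTL libraries. It was 0.83 without CTL replicate 1, 0.64 without H2A.Z dKO replicate 1, 0.16 without CTL replicate 2 and 0.20 without H2A.Z dKO replicate 3.

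Pecam1, an adhesion molecule of endothelial cells and platelets (chr11:106515531-106611942, minus strand), had 3 intervals, none at a TSS. Its sum was 56.7, 65.1 and 56.6 CPM in CTL and 59.1, 54.8 and 48.0 CPM in H2A.Z dKO, which overlapped. Pecam1 had a log2 fold change of -0.14 (SE 0.12, 95% confidence interval -0.39 to 0.12), which was -0.068 without CTL replicate 2, -0.073 without H2A.Z dKO replicate 3 and -0.21 without H2A.Z dKO replicate 1. Peak_26345 in intron 13, its most accessible interval, had 123, 163 and 133 RPKM in CTL and 135, 126 and 96.4 RPKM in H2A.Z dKO.

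**Figure D2:**
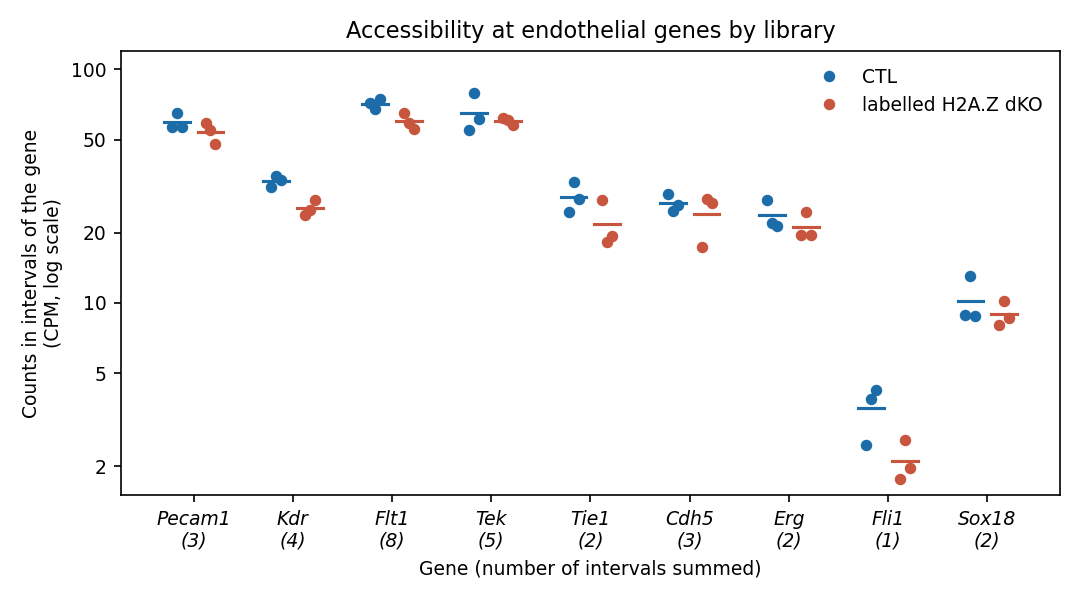
Summed counts of the intervals of each gene, in CPM on a log axis, with 1 point per library and a line at each group mean (n = 3). Kdr and Flt1 are the genes whose groups do not overlap, and Sox17 is absent because it has no interval.

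Of the transcription factors, Erg (chr16:95580776-95808200, minus strand) had 2 intronic intervals. Their sum was 27.7, 22.1 and 21.2 CPM in CTL and 19.5, 24.5 and 19.6 CPM in H2A.Z dKO, with a log2 fold change of -0.18 (SE 0.17, 95% confidence interval -0.54 to 0.19). It was -0.038 without CTL replicate 1 and -0.29 without H2A.Z dKO replicate 2. Peak_34462 in intron 3 had 82.2, 94.9 and 82.1 RPKM in CTL and 64.0, 75.0 and 55.3 RPKM in H2A.Z dKO, without overlap and at a log2 fold change of -0.42 (SE 0.21). Peak_34461 in intron 4 had 0.14 (SE 0.27), with 82 counts in CTL replicate 1 against 26 and 25 in the other CTL libraries.

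Fli1 (chr9:32229793-32348974, minus strand) was measured by a single interval of 18 bp in intron 1, 35112 bp from the TSS. It held 15, 18 and 15 counts in CTL and 10, 12 and 10 in H2A.Z dKO, or 2.46, 3.90 and 4.25 CPM against 1.75, 2.60 and 1.96 CPM. The ranges overlapped. The log2 fold change of -0.71 (SE 0.33, 95% confidence interval -1.41 to -0.0023) was the most negative of the 9 sums and had the widest interval. Its unadjusted p was 0.0493 and its adjusted p 0.983 in edgeR.

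Sox18 (chr2:181404541-181406345, minus strand) had 2 intervals, both upstream of it and nearer to another gene. Peak_5431 lies 7237 bp from the Sox18 TSS and 1433 bp from that of Tcea2, a transcription elongation factor gene. Peak_5432 lies 29 bp from the Tcea2 TSS and also counts for Rgs19. Peak_5431 had 24, 31 and 20 counts in CTL and 9, 18 and 16 in H2A.Z dKO, did not overlap once scaled, and had the most negative value of the 30 intervals, -0.92 (SE 0.32, unadjusted p of 0.0090 in edgeR). Peak_5432 had 0.32 (SE 0.26), so that the sum, 8.85, 12.99 and 8.78 CPM against 8.07, 10.2 and 8.63 CPM, came to -0.19 (SE 0.22, 95% confidence interval -0.67 to 0.28), and to 0.017 without CTL replicate 2. Sox17 had no value. Peak_5432, 8699 bp from the Sox18 TSS, was the farthest interval upstream that the 10 kb rule took in. The nearest ones left out, Peak_5430 and Peak_5429, lie 11.8 and 11.9 kb from that TSS and had log2 fold changes of -0.39 (SE 0.26) and -0.38 (SE 0.22). The 17 intervals added between 10 and 50 kb had a median of -0.07, with 9 negative.

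Over the 30 intervals, 24 had a negative log2 fold change and 6 a positive one. The median was -0.36, against 0.01 over all intervals, of which 47.5% were negative. By edgeR's unadjusted p under 0.05, 6 members were lower in H2A.Z dKO, against 2.31% of all intervals, and 0 were higher, against 2.64%. The lower ones were Flt1 Peak_12271 and Peak_12270, Sox18 Peak_5431, Cdh5 Peak_18538 and Peak_18539, and Fli1 Peak_19634. Their number was 3 without CTL replicate 2 (1.86% of all intervals under that setting), 3 without CTL replicate 3 (1.24%) and 2 with DESeq2 (0.852%). That of higher ones was 2 without CTL replicate 1 (2.58%) and 1 without H2A.Z dKO replicate 1 (4.24%). For 7 members the groups did not overlap with H2A.Z dKO lower, against 5.63% of all intervals, and for 0 with H2A.Z dKO higher, against 5.22%. Adjusted p ranged from 0.972 to 0.998, so no single interval was called, and DESeq2 and limma voom also called 0 of the 30. Neighbouring intervals of 1 gene are not independent, and the overlapping pair in Tek shares fragment ends. The members were chosen with earlier results of these data known, so setting them beside all intervals or all sums is a description and not a test. For 20 of the 30, both bounds of the 95% confidence interval were inside a 2-fold change, and for 8 of the 30 the lower bound excluded a loss of 1.5-fold.

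**Figure D3:**
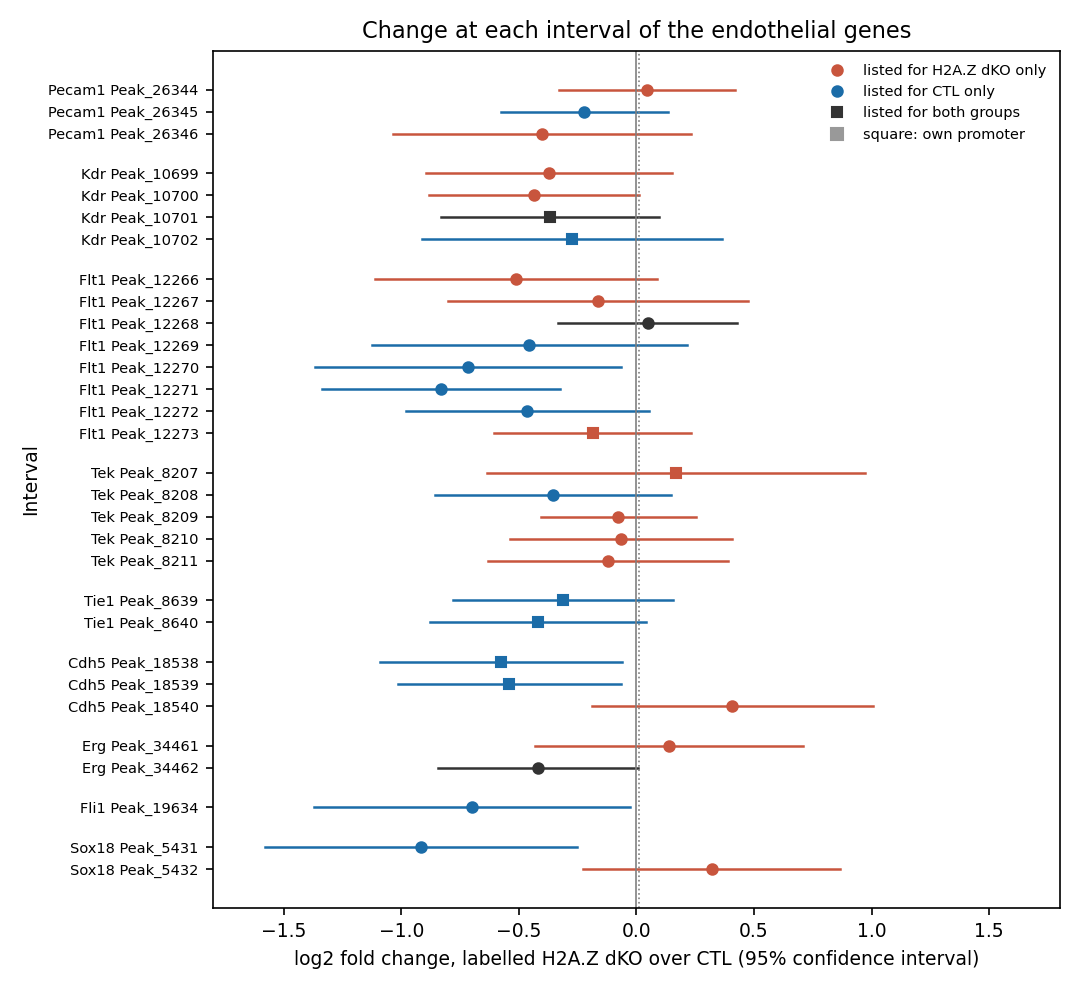
Log2 fold change of each member interval, labelled H2A.Z dKO over CTL, with 95% confidence intervals from edgeR (3 libraries against 3). Colours show for which group the authors listed the interval, squares are own promoters, the solid line is 0 and the dotted line the median of all intervals, 0.01. Of the 30 points, 24 lie left of 0.

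The authors listed each interval for CTL, for H2A.Z dKO or for both, from these same libraries. How an interval entered a list is not certain, because the table is named for pooled peaks and the methods require regions shared by replicates. The 13 members listed for CTL only were all negative, with a median of -0.46, against -0.13 over all 7128 such intervals, of which 70.5% were negative. All 6 members lower at an unadjusted p under 0.05 were among these 13, and of all 919 intervals lower at that p, 553 were likewise listed for CTL only. The 14 members listed solely for H2A.Z dKO had a median of -0.10 with 9 negative, against 0.11 over all 17264 such intervals, of which 30.2% were negative. Of the 3 members listed for both groups, 2 were negative and the median was -0.37, against -0.02 over all 15376. The value of -0.37 is that of Kdr Peak_10701, and another of the 3 is the repeat in Flt1. The median over all intervals of a kind thus shifted with the list. The members' median lay below it in each, though for both groups it rests on these 3 intervals only.

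Promoter and other members had similar medians, -0.34 over the 8 at an own promoter, 7 of them negative, and -0.36 over the other 22, 17 of them negative. The 30 intervals summed to 307, 343 and 314 CPM in CTL, or 322 ± 19.1 (SD, n = 3), and to 285, 282 and 265 CPM in H2A.Z dKO, or 277 ± 10.5 (SD, n = 3). The groups did not overlap. CTL replicate 2 was the highest, and leaving it out gave a median over the members of -0.25.

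**Figure D4:**
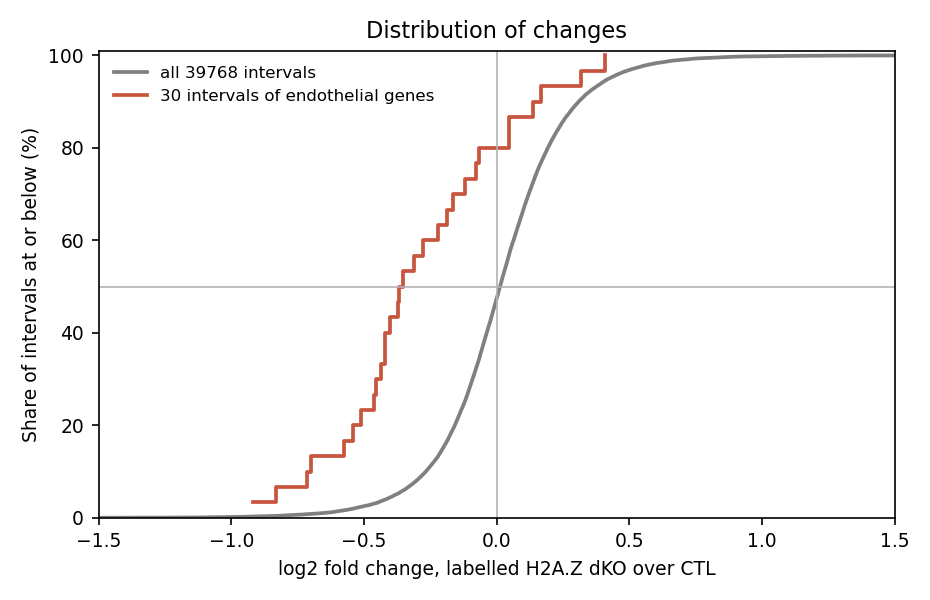
Cumulative share of intervals against log2 fold change, for all 39768 intervals (grey) and the 30 member intervals (red). The curve of the members lies to the left and crosses 50% near -0.36, that of all intervals near 0.01.

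Other lists of genes, also chosen with earlier results of these data known, were measured in the same way to place these values. Of 47 other endothelial genes, which are ligands, receptors, markers such as Vwf and Cldn5, Notch and ephrin pathway genes and further factors of vessels, 37 had an interval. Angpt2, Aplnr, Elk3, Emcn, Eng, Flt4, Gata2, Robo4, Sox7 and Tal1 had none. Their 114 intervals had a median of -0.01, with 58 negative, and summed to 2530 to 2652 CPM in CTL and 2457 to 2733 CPM in H2A.Z dKO, which overlapped. At an unadjusted p under 0.05, 10 were lower and 2 higher (2.31% and 2.64% of all intervals), and for 17 the groups did not overlap with H2A.Z dKO lower and for 6 with H2A.Z dKO higher (5.63% and 5.22% of all intervals). Of their 37 gene sums, 24 were negative, and 6 were lower and 0 higher at an unadjusted p under 0.05, against 2.48% of all sums for lower ones. The lowest p of the list was at Peak_11981 of Ephb4, the receptor of venous endothelium, at -0.40 (SE 0.12, adjusted p of 0.972 in edgeR). The counts of lower intervals and sums were thus above the share of the table in the wider endothelial list too, while its median was near that of all intervals. Some lists of other cells, given below, also had such counts above that share. An example is 3 of 15 macrophage and blood intervals without overlap and lower in H2A.Z dKO. Lists other than the members were not followed under the alternative settings. The members and the wider endothelial list were not compared by a test. Several genes of the wider list, such as Vegfa and Klf4, are also used by other cells.

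For muscle fibres, 22 of 24 genes had an interval, all but Myh2 and Myh7. In CTL, the highest promoter intervals of the muscle fibre genes had a median of 162 RPKM, over 18 genes. It was 97.7 for the members, over 5 genes and so the value of Tek Peak_8207, which rests on 6 to 15 counts. It was 129 for the other endothelial (26 genes), 77.0 for the mural cell (6), 100.1 for the fibroblast (7) and 130.2 for the satellite cell genes (6). The 157 RPKM of the macrophage and blood list came from 1 gene, so it does not describe that list. The 116 intervals of the muscle fibre genes had a median of 0.06, with 46 negative. At an unadjusted p under 0.05 in edgeR, 1 was lower and 3 higher (2.31% and 2.64% of all intervals). The lowest p was at Peak_37835 of Actn3 (-0.46, SE 0.15). Genes of mural cells, which surround small vessels, had 17 intervals over 8 of 10 genes, without Acta2 and Rgs5, a median of -0.04, 9 negative, 1 lower and 1 higher at that p, and the lowest p at Peak_20140 of Cspg4 (-0.57, SE 0.20). Their sum was 196 to 204 CPM in CTL and 195 to 220 CPM in H2A.Z dKO.

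Macrophage and blood genes had 15 intervals over 6 of 15 genes, with a median of -0.02, 9 of them negative, 1 lower and 0 higher at that p, and the lowest p at Peak_37300 of Csf1r (-0.65, SE 0.31). In that list Ptprc, Emr1, Itgam, Mrc1, Cx3cr1, C1qa, C1qb and Ikzf1 had no interval, and 1 gene was not found under its symbol. The list summed to 481 to 502 CPM in CTL and 447 to 486 CPM in H2A.Z dKO. Fibroblast genes had 17 intervals over 7 of 12 genes, without Dcn, Lum, Postn, Tcf21 and Thy1, a median of 0.11, 5 negative, 0 lower and 1 higher at that p, with the lowest p at Peak_25730 of Col1a1 (0.82, SE 0.29). Satellite cell genes had 31 intervals over 8 of 10 genes, without Calcr and Vcam1, a median of 0.11, 6 negative, 0 lower and 1 higher at that p, with the lowest p at Peak_23632 of Itga7 (0.46, SE 0.22). No interval of these lists passed the adjusted threshold. Gene sums lower at an unadjusted p under 0.05 in edgeR numbered 1 of 22 for muscle fibre and 1 of 8 for mural cell genes. They numbered 0 of 6 for macrophage and blood, 0 of 7 for fibroblast and 0 of 8 for satellite cell genes, against 2.48% of all sums. Of the sums of these lists, 0 were higher at that p, against 2.01% of all sums. The groups did not overlap, with H2A.Z dKO lower, for 5 muscle fibre, 1 mural cell, 3 macrophage and blood, 0 fibroblast and 0 satellite cell intervals (5.63% of all intervals), and with H2A.Z dKO higher for 9, 1, 0, 1 and 4 (5.22%). Fibroblast genes summed to 243 to 298 CPM in CTL and 268 to 328 CPM in H2A.Z dKO, and satellite cell genes to 569 to 631 against 629 to 641 CPM. Whether cell composition had a part in the values of the endothelial genes was not tested.

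The sequences were searched for the fixed words CAGGAAG and CCGGAAG for ETS factors, AACAAT for SOX factors and AGATAAG for the GATA family on both strands, in 300 bp centred on each interval. CAGGAAG was found in 11 of the 30 member windows (36.7%), against 13.8% of all 39768 windows, and CCGGAAG in 3 (10.0%), against 9.11%. AACAAT was found in 8 (26.7%), against 6.47%, and AGATAAG in 3 (10.0%), against 1.73%. The windows with AGATAAG were all of Flt1, at Peak_12266, Peak_12271 and Peak_12272. The windows of neighbouring intervals overlap, as for Peak_12271 and Peak_12272 of Flt1 or Peak_10699 and Peak_10700 of Kdr, so that 1 word can be counted in several windows. An ETS word was found in 11 of the 21 member windows over 1 kb from any TSS, against 18.9% of all windows away from promoters, in that of Sox18 Peak_5432 at the Tcea2 TSS, and in 0 of the 8 at an own promoter, against 24.3% of all promoter windows. AACAAT was found in 3 of these 8, against 3.98% of all promoter windows, in the window of Tie1 Peak_8640 and in both windows of Cdh5, which overlap. Of ETS words only CAGGAAG and CCGGAAG were searched, and the Flt1 and Tie1 promoter sequences shown above hold other words with a GGAA core. A match says that these letters are present, and the binding of a factor was not measured here. The median GC content was 61.3% in the member windows at own promoters, against 64.0% at all promoters, and 54.0% in the others, against 52.0%.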

How the data were processed

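ATAC-seq counts of 3 CTL and 3 H2A.Z dKO libraries were analysed. The authors trimmed adapters (Trimmomatic), aligned pairs to mm9 (Bowtie2), removed duplicates (Picard), shifted fragment ends for Tn5, called MACS2 peaks, merged them into intervals and deposited raw counts of fragment ends per interval. Further columns, with the fold changes and p-values of the authors' own DESeq2 comparison, were not used. Count columns were matched to samples by their header names, split at white space because the header line has spaces for some tabs and lacks the name of 1 column of the authors' comparison. Of the count columns, 0 were left unused. Start positions were read as counted from 0. Since intervals are called from these libraries, weakly open sites have no value, and narrow intervals have few counts.

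CPM and RPKM were computed from the sum of counts in all intervals. Groups were compared with edgeR 4.0.16 in R 4.3.3 (TMM, robust quasi-likelihood, no filter, no replicate block, all 39768 intervals or 17287 gene sums, Benjamini-Hochberg, threshold 0.05). The biological coefficient of variation was 0.126. Python 3.11.15 was used for the annotation. Own-promoter intervals have their midpoint within 1 kb of a TSS of the gene. Non-overlap of groups was judged on CPM. Alternatives were DESeq2 1.42.0, voom of limma 3.58.1, other scalings, a minimum mean of 20 counts, a replicate block, other distances and each library left out. Intervals named by rule were each gene's promoter interval with the highest mean RPKM and those with the lowest p in each direction. Other member intervals were named after their values were seen. Some sequences are not reported here. Members and gene lists were chosen with earlier results of these data known.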

Additional observations from a re-analysis of the deposited data

How the results depend on the processing

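No member interval or gene sum passed an adjusted p of 0.05 under any alternative run, or 0.1 in the main analysis, and no interval of the table passed 0.05. The median log2 fold change of the members stayed negative, with values of -0.37 to -0.25 when 1 library was left out, the latter without CTL replicate 2. The number lower at an unadjusted p under 0.05 was 6, but 2 with DESeq2 (0.852% of all intervals), 3 with a minimum mean of 20 counts, which left 22 members (1.83%), and 3 to 7 with 1 library left out, when the share of all intervals was 1.24% to 3.71% (3 without CTL replicate 2 and 3 without CTL replicate 3). The number higher was 0 to 2 with 1 library left out, when the share of all intervals was 1.94% to 4.24%. It was 2 without CTL replicate 1 (2.58%) and 1 without H2A.Z dKO replicate 1 (4.24%). Sums lower at that p numbered 3, but 1 with DESeq2 (Kdr, 1.28% of all sums), 1 with promoter intervals only (Cdh5, 2.39%) and 1 to 3 with 1 library left out (1.2% to 5.33%). Negative members numbered 23 to 26 with 1 library left out and negative sums 7 to 9. With promoter intervals only, 5 genes had a sum and 4 were negative. With 1 library left out, the sum of Tek ranged from -0.22 to 0.061 (positive without CTL replicate 2), that of Cdh5 from -0.29 to 0.019 (positive without H2A.Z dKO replicate 1), that of Sox18 from -0.31 to 0.017 and Peak_10702 of Kdr from -0.47 to 0.014 (both positive without CTL replicate 2). Peak_8207 of Tek ranged from -0.34 to 0.46, and was negative without CTL replicate 1 and, at -0.082, without H2A.Z dKO replicate 1. The sum of Tek was 0.16 with its promoter interval only. The causes were not tested. Leaving out the tandem repeat in Flt1, an alternative chosen after seeing the data, gave a median of -0.37. Equal replicate numbers did not pair the libraries (correlations of deviations -0.124, -0.064 and -0.052), and the replicate block gave a median of -0.36 with 6 lower (2.13% of all intervals). The number of member intervals was 30, but 47 within 50 kb, 28 within 5 kb (none for Sox18) and 3 if listed for both groups. Their median percentile of RPKM in CTL was 33.2, and 33.3 to 33.8 with the other measures of level. With 3 libraries a group and a median of 33.9 counts, 8 of the 30 confidence intervals exclude a 1.5-fold loss, and for the other 22 a loss of that size was not excluded.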
